A study of Mus musculus with 36 samples.

Results

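The 36 genes described here are transcriptional targets of the tumour suppressor p53, together with the p53 gene Trp53 itself and its inhibitors, without the best known target, Cdkn1a (p21). They were chosen by name as members of this pathway, with earlier results of these data known. All 36 were found among the 55414 genes counted and among the 20657 genes kept for testing. RNA was measured in 36 libraries of mouse skin: 3 of unwounded skin (labelled day 0) and 33 of wounds taken 2, 4 or 12 days after injury. The wounds belong to 2 arms that the labels call P and PD, with 5, 5 and 6 libraries at days 2, 4 and 12 in P and 5, 6 and 6 in PD. The labels spell out neither arm, and give no genotype, strain, age, sex, allele or agent. By its title the study deals with clearing senescent cells rich in p21 from healing skin. The comparisons ask what wounding changed in the p53 pathway at each day, and how the arms compare. Nothing in the labels says that libraries of a group came from separate animals, so the p-values measure the spread between these libraries, which may be partly technical.

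p53 is a transcription factor that is held at a low level by the ubiquitin ligase Mdm2 and its partner Mdm4, and is stabilised after DNA damage and other stress. It binds response elements near its targets, which code for cell cycle inhibitors, mediators of apoptosis, DNA repair proteins, enzymes of redox and energy metabolism, and its own inhibitors. Many of these genes also answer to other factors, such as AP-1 in injured skin and p63 in keratinocytes, so the level of a target is not a reading of p53 activity. In skin, p53 is known for the response to ultraviolet light and for the senescence programme in which p21 takes part.

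The DNA around the start site of each gene was searched for the p53 response element, 2 units of 10 bases each that may be parted by up to 10 bases, with an invariant C and G inside each unit and at most 1 mismatch over both. The search covered 1000 bases to either side of the start (2001 in all) in GRCm39, and both strands, because the element is its own reverse complement. Of the 36 genes, 7 (19.4%) held a match, against 874 of 21627 protein-coding genes (4.04%). A match without mismatch was found for 1 of 36 (2.78%) and for 76 of 21627 (0.351%). Below are the matches of the genes on which several results turn, written 5′ to 3′ along the gene's strand, with the 2 units in capitals and any bases between them in lower case. Ccng1, the cyclin G1 gene, held a match 170 bases before its start at chr11:40646289-40646308 (minus strand), and a second in an intron at chr11:40645763-40645782, printed with 30 bases to either side in lower case.
Ccng1 upstream: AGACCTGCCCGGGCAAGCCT
Ccng1 intron: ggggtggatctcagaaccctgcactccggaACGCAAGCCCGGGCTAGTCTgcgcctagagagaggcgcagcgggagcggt
Psrc1, which codes for a microtubule protein of the dividing cell, held a match in an intron at chr3:108291972-108291991 (plus strand), also printed with its surroundings.
Psrc1 intron: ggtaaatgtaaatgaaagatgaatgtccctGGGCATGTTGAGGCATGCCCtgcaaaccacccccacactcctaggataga
Gadd45a, a stress sensor of the growth arrest family, held overlapping matches upstream of its start (minus strand), at chr6:67014844-67014867 and chr6:67014858-67014887.
Gadd45a upstream, nearer: AAGCAAGCTTtgccCGGCATGTCT
Gadd45a upstream, farther: AAACTTGCATataaacactgAAGCAAGCTT
Pidd1, which codes for the scaffold of a caspase-activating complex, held the match without mismatch, in an exon at chr7:141023216-141023244 (minus strand).
Pidd1 exon: AGGCTTGCTTggcaagctgGGACATGTCT
Gdf15, a secreted stress cytokine, and Plk2, a kinase of the polo family, each held an exonic match, at chr8:71084616-71084635 (minus strand) and chr13:110531643-110531664 (plus strand).
Gdf15 exon: TGACTTGCCTGAACTTGCCT
Plk2 exon: GGGCTAGCCCggACGCTTGTCC
Pmaip1 was the seventh gene with a match. These are matches of letters in a window and were not tested for binding in these samples. The measured RNA of the 7 genes went in different directions, as described below.

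The depth of the libraries ran from 11.807 to 58.376 M counts over all genes (median 30.397 M), and the lowest count of any of the 36 genes in any library was 3 (Gdf15), so counting error was small for all genes but Gdf15. Values are CPM, counts scaled to a common library size by TMM, which corrects for a few abundant genes taking up reads. A parenthesis after a call that was lost gives the adjusted p under that alternative. A gene was called at an edgeR quasi-likelihood p under 0.05 after Benjamini-Hochberg adjustment over all 20657 genes, and errors of log2 changes are standard errors. The tissue of the biopsies differed between groups. The summed CPM of 10 skeletal muscle markers was 75700 to 120000 in unwounded skin and had group medians of 10300 to 44600 in the 6 wound groups, and 2 wound libraries lay within the unwounded range (PD day 4 replicate 3, 79900, and PD day 12 replicate 3, 81200). Neutrophil markers summed to at most 2.43 CPM in unwounded skin, where 3 of the 8 were at 0, and to between 2380 and 13900 CPM at days 2 and 4. Hair follicle markers summed to 21 to 33.3 CPM in unwounded skin. At day 12 their sums were 543 to 10600 CPM in P and 677 to 9650 in PD. The part of hair follicle in the day 12 changes, such as those of Trp53, Pidd1 and Psrc1, was not tested. At day 12, replicates 1 and 2 of both arms stood apart: their fibroblast marker sums were 42300 to 87400 CPM against 10900 to 25500 in the other 8 libraries, and their macrophage sums 1220 to 2090 against 194 to 724. The day 12 results were therefore also computed without those 4 libraries. In bulk tissue, fewer cells of a type and less RNA per cell cannot be told apart.

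Against unwounded skin, 22 to 24 of the 36 genes were called in each wound group. In P wounds at day 2, 10 were called higher and 14 lower, against 22.3% and 19% of all genes (41.3% called in all). The P counts were 10 and 12 at day 4 (all genes 23.6% and 19.7%, 43.3% in all) and 9 and 14 at day 12 (23.7% and 20%, 43.7% in all). PD wounds had 8 and 14 at day 2 (21% and 18.4%, 39.4% in all), 11 and 11 at day 4 (25.4% and 21.8%, 47.1% in all) and 10 and 14 at day 12 (24.2% and 20.7%, 44.9% in all). As shares of the 36 genes, those called higher were 22.2% to 30.6%, close to the share among all genes, and those called lower were 30.6% to 38.9%. The median log2 change of the 36 genes lay between -0.06 and 0.24 in the 6 comparisons, and that of all genes between 0.02 and 0.10. Without day 12 replicates 1 and 2 of both arms, the day 12 counts were 9 and 15 in P and 10 and 14 in PD. Without a composition factor the number called lower in P wounds at day 12 was 8, and the median of all genes in that comparison moved from 0.10 to 0.37. The 6 comparisons share the same 3 control libraries and are given side by side for that reason.

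**Figure D1:**
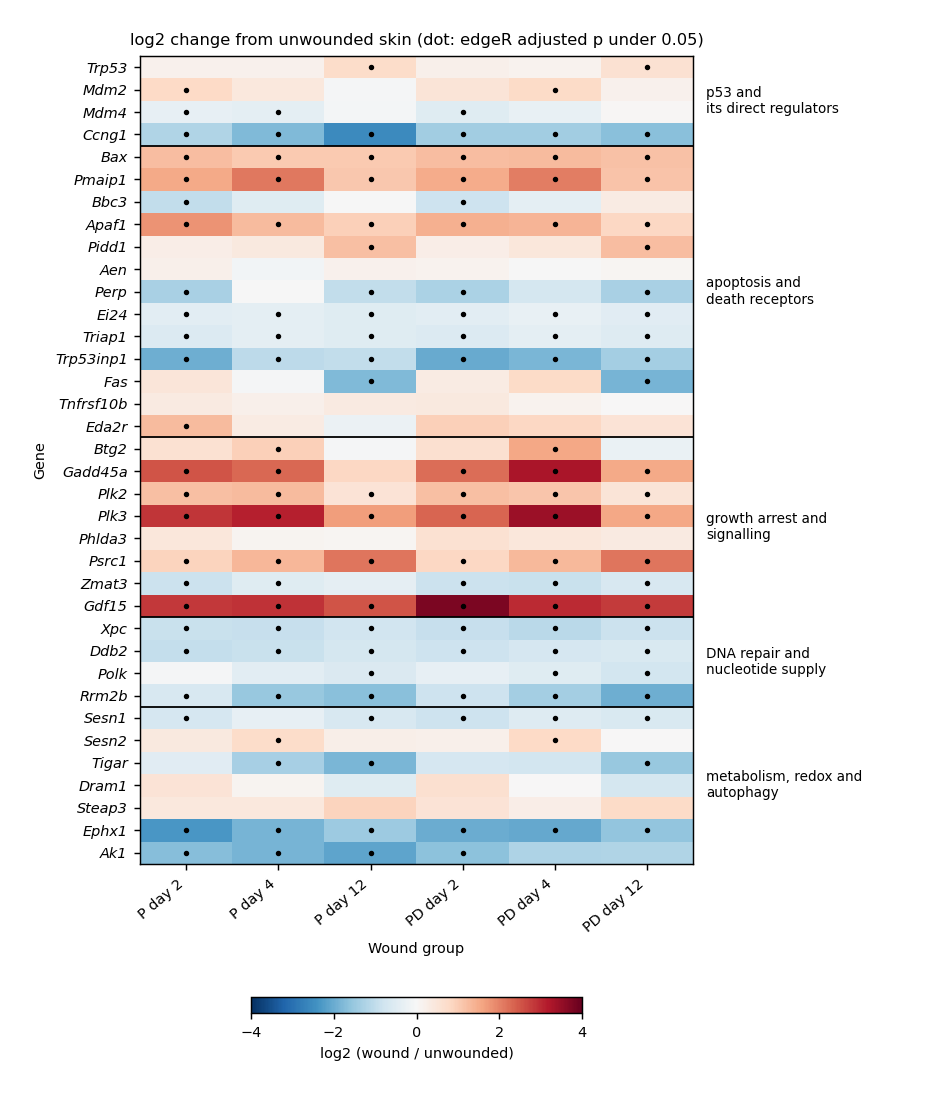
Log2 change of each of the 36 genes (rows, by role) from unwounded skin in the 6 wound groups (columns); red is higher in wounds, blue is lower, and a dot marks an edgeR adjusted p under 0.05. Bax, Pmaip1, Apaf1, Plk2, Plk3 and Gdf15 lie on the red side with a dot in all 6 columns, and Xpc, Rrm2b, Ddb2, Ephx1, Trp53inp1 and Ccng1 on the blue side.

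The genes were placed in 5 role groups with earlier results of these data known. Trp53 and its inhibitors were the first group. The RNA of Trp53 itself was called higher at day 12 and not before. It was 77.1, 68.9 and 91 CPM in the 3 unwounded libraries, 94.7, 73.8, 86, 95.5 and 91.5 in P wounds at day 2 and 83.3, 76.6, 102, 89.6 and 94.4 at day 4, and 94.1 to 160.0 with a median of 144 at day 12. PD wounds held 85.8, 86.4, 86.9, 91.9 and 101 at day 2, 69.9 to 102 with a median of 84.7 at day 4 and 101 to 146 with a median of 113 at day 12. Every day 12 library lay above every unwounded library, while the day 2 and day 4 libraries overlapped with them. The day 12 level was 1.66-fold higher in P (log2 0.73 ± 0.15, adjusted p = 0.000329) and 1.52-fold higher in PD (log2 0.61 ± 0.15, adjusted p = 0.00199). Trp53 also rose from day 4 to day 12 within each arm, by a log2 of 0.55 ± 0.13 in P (adjusted p = 0.00191) and 0.48 ± 0.12 in PD (adjusted p = 0.00281). Within P day 12 the level was lowest in replicates 1 and 2 (94.1 and 95.3 CPM), the libraries with high fibroblast and macrophage sums, and 140.9 to 160.0 in the other 4. The calls at day 12 held without replicates 1 and 2 of both arms. Trp53 spans chr11:69469669-69482701 (plus strand, GRCm39), and its exons overlap those of Wrap53 on the other strand, so reads of the 2 genes could be mixed if the counting did not use strand, which the sources used here do not state.

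Mdm2, the ligase that marks p53 for degradation and is itself a p53 target, was higher at day 2 and in part of the day 4 libraries. It was near the unwounded level at day 12. It was 64.4, 60.7 and 67.3 CPM in unwounded skin. P wounds held 95.7, 103, 124, 122 and 113 at day 2, 66.4, 68, 69.6, 142 and 85.5 at day 4 and 56.1 to 71.4 with a median of 60.8 at day 12. The PD wounds held 81.5, 78.7, 92.7, 96.6 and 110.5 at day 2, 60.2 to 162 with a median of 119.6 at day 4 and 58.1 to 88.9 with a median of 71.8 at day 12. All 5 libraries of each arm at day 2 lay above unwounded skin. At day 4, libraries near 120 CPM or above were 1 of 5 in P and 4 of 6 in PD. P replicate 5 lay between, at 85.5 CPM, and the other day 4 libraries were near the unwounded level. It was called in P at day 2 (1.74-fold, log2 0.80 ± 0.24, adjusted p = 0.00744) and in PD at day 4 (1.69-fold, log2 0.76 ± 0.23, adjusted p = 0.00804), and missed the threshold in PD at day 2 (log2 0.52 ± 0.24, adjusted p = 0.078). P at day 4 was not called. In PD wounds it fell from day 4 to day 12 (log2 -0.60 ± 0.18, adjusted p = 0.0121). The call did not hold without PD day 4 replicate 5 (0.0575), and without a composition factor (0.0672), with only the libraries compared (0.0713) and without day 12 replicates 1 and 2 (0.055). Over the wound libraries, Mdm2 moved with the summed muscle markers (deviations from group means, r = 0.58, permutation p = 0.00038, adjusted p = 0.00324; Spearman 0.68, p = 3e-05, adjusted p = 0.000463; r = 0.62 without the 2 farthest libraries and 0.48 with the replicate number also removed; n = 33). It was lower where keratinocyte markers were higher (r = -0.63, permutation p = 0.00086, adjusted p = 0.00606; Spearman -0.54, p = 0.00652, adjusted p = 0.0302; r = -0.55 without the 2 farthest libraries and -0.54 with the replicate number also removed). At day 4 the P library high in Mdm2, replicate 4, had the highest muscle sum of its group (55500 CPM against 5560 to 16300), and the PD libraries low in it, replicates 1 and 2, the lowest of theirs (14500 and 17400 against 21300 to 79900). Neutrophil sums were likewise highest of the group in that P library (9280 CPM) and lowest in those PD libraries (3760 and 2610). Between unwounded skin and day 2 the muscle sum and Mdm2 went opposite ways. The sum was 75700 to 120000 CPM in unwounded skin, and 16200 to 45400 in P and 16500 to 54000 in PD at day 2. The part of these cell types was not tested.

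Mdm4, the partner that blocks p53's activation domain, was called lower at day 2 in both arms and at day 4 in P, by at most 1.41-fold. In PD at day 4 it was 79.65 to 114.7 CPM, reaching the unwounded range, and was not called. It was 119, 121 and 112 CPM in unwounded skin and 79.9, 72.4, 85.2, 92.2 and 86.1 in PD wounds at day 2, below every unwounded library (log2 -0.50 ± 0.14, adjusted p = 0.00405). This call was lost without a composition factor (0.0534). Its calls in P at day 2 (log2 -0.34 ± 0.14, adjusted p = 0.0465) and day 4 (log2 -0.39 ± 0.14, adjusted p = 0.022) were lost with single libraries left out. The first was lost without P day 2 replicates 1, 4 and 5 or unwounded replicates 1, 2 and 3 (1 at a time, 0.0694 to 0.149), and with DESeq2 size factors (0.0528), without a composition factor (0.162), without the filter on low counts (0.0669) and with only the libraries compared (0.0603). The second was lost without P day 4 replicates 1 and 5 or unwounded replicates 1, 2 and 3 (1 at a time, 0.0605 to 0.106), and without a composition factor (0.11) and with only the libraries compared (0.0859). By day 12 it was back at 101 to 119 CPM in P and 102 to 143 in PD. The rise from day 4 was called in PD (log2 0.34 ± 0.11, adjusted p = 0.0149; with only the libraries compared, 0.0711) and in P (log2 0.32 ± 0.11, adjusted p = 0.0379). The P call was lost without P day 12 replicates 3, 4, 5 and 6 or P day 4 replicates 1, 2 and 5 (1 at a time, 0.0537 to 0.122), and without the filter on low counts (0.0505) and with only the libraries compared (0.1).

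Ccng1, which recruits a phosphatase to Mdm2 and carries the response elements printed above, went the other way from Mdm2: it was lower in all 6 wound groups. It was 498, 688 and 375 CPM in unwounded skin. The P libraries held 158, 205, 276, 256 and 228 at day 2, 139, 127, 78.5, 292 and 121 at day 4 and 44.6 to 142 with a median of 74.1 at day 12. The PD wounds held 207, 160.0, 199, 263 and 169.8 at day 2, 127 to 333 with a median of 163 at day 4 and 57.5 to 379 with a median of 138 at day 12. No wound library but 1 reached the unwounded range: PD day 12 replicate 3, at 379.3 CPM, the wound library with the highest muscle marker sum. The fall was 5.88-fold in P at day 12 (log2 -2.56 ± 0.43, adjusted p = 1.83e-05) and 3.19-fold in PD (log2 -1.67 ± 0.43, adjusted p = 0.00219). At days 2 and 4 the fall was 2.32-fold and 3.44-fold in P (adjusted p = 0.0293 and 0.00191) and 2.61-fold and 2.6-fold in PD (adjusted p = 0.0141 and 0.00862). The call in P at day 2 was lost without P day 2 replicates 1 and 2 or unwounded replicates 1 and 2 (1 at a time, 0.0508 to 0.155). In PD it was lost without unwounded replicate 2 at day 2 (adjusted p = 0.104) and at day 4 (0.0716). Over the 33 wound libraries the level of Ccng1 moved with the summed muscle markers (deviations from group means, r = 0.90, permutation p = 1e-05, the smallest the permutations can give; Spearman 0.90, same p; adjusted p = 0.000171 and 0.000231 over 324 pairs; r = 0.88 without the 2 farthest libraries), and the part of muscle in the fall was not tested. Its exons overlap those of Nudcd2 on the other strand.

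The apoptosis and death receptor genes divided. Of 13, 4 were called higher and 5 lower in P at day 2, 3 and 3 at day 4, and 4 and 5 at day 12. The PD counts were 3 and 5, 3 and 3, and 4 and 5. As shares of the 13, 23.1% to 30.8% were called higher and 23.1% to 38.5% lower. Among all genes the shares were 21% to 25.4% and 18.4% to 21.8%, so the higher share was near that of all genes. Bax, the pore-forming effector of mitochondrial apoptosis, was higher in every wound library than in every unwounded one. It was 16, 16.4 and 16.6 CPM in unwounded skin. Its values in P were 31.2, 30.5, 40.1, 45.1 and 45 at day 2, 28.4, 26, 23.7, 54.1 and 35.1 at day 4 and 29.9 to 40.8 with a median of 33.5 at day 12. The PD libraries held 35.7, 37, 38, 34.3 and 45.1 at day 2, 25.8 to 51.7 with a median of 39.1 at day 4 and 29.4 to 47.3 with a median of 36.1 at day 12. The rise was 2.35-fold, 2.05-fold and 2.08-fold in P (adjusted p = 3.41e-05, 0.000296 and 0.000179) and 2.33-fold, 2.4-fold and 2.26-fold in PD (adjusted p = 4.64e-05, 1.63e-05 and 5.37e-05), with standard errors of 0.21 to 0.22 on the log2 scale. These calls held under every alternative tried. Bax shares exons on the same strand with the predicted gene Gm45808, so reads of the 2 may have been split or set aside in the counting.

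Pmaip1, which codes for the BH3-only protein Noxa, was higher in wounds at every day, with the highest group means at day 4. It was 4.67, 4.59 and 6.13 CPM in unwounded skin. Across P wounds it was 22.3, 14.7, 13.3, 13.3 and 9.61 at day 2, 19.4, 21.3, 25.8, 21.4 and 22.5 at day 4 and 8.58 to 12.4 with a median of 11.2 at day 12. The PD libraries held 14.1, 17.5, 14.4, 9.37 and 16.1 at day 2, 16.3 to 26.5 with a median of 21.4 at day 4 and 9.19 to 12.7 with a median of 11.1 at day 12. No wound library overlapped with unwounded skin. The day 4 rise was 4.31-fold in P (log2 2.11 ± 0.22, adjusted p = 1.37e-08) and 4.1-fold in PD (log2 2.04 ± 0.22, adjusted p = 1.08e-08). The level then fell to day 12 in both arms (log2 -1.02 ± 0.17, adjusted p = 4.4e-05, in P and -0.90 ± 0.16, adjusted p = 5.12e-05, in PD). The step from day 2 to day 4 was called in P (log2 0.59 ± 0.17, adjusted p = 0.0297). It lost the call without P day 4 replicates 3 and 5 or P day 2 replicates 2, 3, 4 and 5 (1 at a time, 0.0506 to 0.113), and without the filter on low counts (0.0501) and with only the libraries compared (0.0779).

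Apaf1, the core of the apoptosome, was higher in wounds at every day. It was 9.87, 11.1 and 9.38 CPM in unwounded skin, 35.7, 38.9, 36.3, 37 and 29.6 in P at day 2 and 23.9, 20.1, 20.5, 28.8 and 27.8 at day 4, and 31.2, 32.4, 27.9, 21.9 and 21.1 and 23.3 to 30.3 with a median of 25.1 in PD. The rise was 3.51-fold in P at day 2 (log2 1.81 ± 0.25, adjusted p = 1.36e-06), 2.39-fold in P at day 4 (adjusted p = 0.000157), and 2.66-fold and 2.55-fold in PD (adjusted p = 4.21e-05 and 4.1e-05). At day 12 it was 13.2 to 35.7 with a median of 15.1 in P and 14.3 to 25.2 with a median of 15.9 in PD, still above every unwounded library (adjusted p = 0.00181 and 0.00564). The highest day 12 values were in replicates 1 and 2 of each arm (35.7, 24.5, 25.2 and 21.8 CPM), the libraries with high macrophage and fibroblast sums, and the other 8 held 13.2 to 16.1. The day 12 calls held without those 4 libraries.

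Pidd1 was called at day 12 and not before. It was 8.56, 7.38 and 9.64 CPM in unwounded skin and 9.21 to 12.4 in P at day 2, 9.91 to 13.4 at day 4, 11.3 to 26.9 with a median of 20.7 at day 12. In PD it was 9.08 to 12.7, 8.26 to 15.3 and 11.8 to 28.8 with a median of 20.9. The day 12 libraries all lay above unwounded skin, 2.28-fold in P (log2 1.19 ± 0.24, adjusted p = 0.000228) and 2.38-fold in PD (log2 1.25 ± 0.24, adjusted p = 0.000138). As with Trp53, replicates 1 and 2 were the lowest of each day 12 group (11.3 to 16.3 CPM, against 20.6 to 28.8 in the others). Pidd1 was also higher at day 12 than at day 4 in P (log2 0.79 ± 0.20, adjusted p = 0.00395) and in PD (log2 0.81 ± 0.19, adjusted p = 0.00117).

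Fas, the death receptor, was lower by day 12. It was 20.5, 19.9 and 20.7 CPM in unwounded skin. In P wounds it was 31.2, 21.4, 25.6, 32.1 and 31.3 at day 2, 17, 12.7, 12, 38.7 and 18.6 at day 4 and 3.42 to 9.87 with a median of 5.06 at day 12. In PD it was 19.5, 24.9, 28.7, 25.9 and 28.4 at day 2, 16.2 to 48.7 with a median of 36.7 at day 4 and 3.65 to 8.61 with a median of 5.21 at day 12. Neither early day was called in either arm, and at day 12 every library lay below unwounded skin, 3.42-fold in P (log2 -1.77 ± 0.33, adjusted p = 7.56e-05) and 3.63-fold in PD (log2 -1.86 ± 0.33, adjusted p = 4.18e-05). The fall from day 4 to day 12 was a log2 of -1.73 ± 0.30 in P (adjusted p = 8.2e-05) and -2.62 ± 0.30 in PD (adjusted p = 8.1e-08). Neutrophil marker sums fell over the same interval, from 2490 CPM or more in every day 4 library to 454 or less in every day 12 library, and macrophage sums fell too. Their part in the change of Fas was not tested.

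Of the other death genes, Trp53inp1, a stress protein of autophagy and apoptosis, fell by up to 4.04-fold. It was 56.6, 37.7 and 54.1 CPM in unwounded skin, 13.9, 21.4, 12.8, 7.14 and 8.87 in P and 13.8, 11.2, 16.2, 11.3 and 8.59 in PD at day 2, which is 3.85-fold (log2 -1.95 ± 0.34, adjusted p = 3.61e-05) and 4.04-fold lower (log2 -2.02 ± 0.35, adjusted p = 2.78e-05). At day 4 it was 25.4, 19.6, 46.8, 12.5 and 15.3 in P and 9.59 to 17.2 with a median of 14.5 in PD (3.54-fold lower, adjusted p = 3.81e-05). At day 12 it was 14.3 to 39.5 with a median of 24.6 in P and 13.8 to 27.8 with a median of 17.9 in PD (PD 2.54-fold lower, adjusted p = 0.00151). P day 4 replicate 3 (46.8 CPM) lay within the unwounded range, and P day 12 replicate 1 (39.5) as well. The P calls at those days were weaker (adjusted p = 0.0147 and 0.0179). The day 4 call was lost without P day 4 replicate 4 or unwounded replicates 1 and 3 (1 at a time, 0.0599 to 0.0859), and with only the libraries compared (0.0563). The day 12 call was lost without unwounded replicates 1 and 3 (1 at a time, 0.0923 to 0.109), and without a composition factor (0.098) and with the replicate number as a block (0.0554).

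Perp, a desmosomal protein of stratified epithelium that also answers to p63, moved with the keratinocyte markers. It was 1852, 1491 and 2118 CPM in unwounded skin. P wounds held 1190, 831, 849, 399.6 and 455 at day 2, 2116, 2561, 1867, 829 and 1627 at day 4 and 795 to 1114 with a median of 902 at day 12. Its values in PD were 793, 956, 548, 768 and 721 at day 2, 459 to 2288 with a median of 836 at day 4 and 407 to 1037 with a median of 734 at day 12. It was called lower at days 2 and 12 in both arms (P 2.44-fold, adjusted p = 0.00749, and 1.97-fold, 0.0318; PD 2.4-fold, 0.00912, and 2.46-fold, 0.00498) and at day 4 in neither. The PD day 2 call was lost without unwounded replicate 3 (0.0655). The P day 12 call was lost without P day 12 replicates 3 and 4 or unwounded replicates 1, 2 and 3 (1 at a time, 0.0525 to 0.156), and without a composition factor (0.14), without the filter on low counts (0.0714), with the replicate number as a block (0.0657) and without day 12 replicates 1 and 2 (0.0861). Within P it rose from day 2 to day 4 (log2 1.27 ± 0.34, adjusted p = 0.0185; lost without P day 4 replicate 2 or P day 2 replicates 4 and 5 (1 at a time, 0.0594 to 0.068), and with only the libraries compared (0.0518)) and fell from day 4 to day 12 (log2 -0.96 ± 0.32, adjusted p = 0.03). It did not pass without P day 12 replicates 3 and 4 or P day 4 replicates 1 and 2 (1 at a time, 0.0569 to 0.101), and without a composition factor (0.088), without the filter on low counts (0.068) and without day 12 replicates 1 and 2 (0.0753). Over the wound libraries Perp moved with the summed keratinocyte markers (r = 0.80, permutation p = 1e-05, adjusted p = 0.000171; Spearman 0.73, p = 0.00013, adjusted p = 0.0015; r = 0.76 without the 2 farthest libraries), whose group medians were 12800 and 14700 CPM at day 2, 30500 and 17100 at day 4, and 10400 and 9570 at day 12 in P and PD.

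Ei24, a membrane protein of the endoplasmic reticulum linked to p53-induced death, and Triap1, a small mitochondrial inhibitor of apoptosis, were lower by modest amounts with little spread. Ei24 was 129, 138 and 145 CPM in unwounded skin, 94.3, 101, 102, 99.3 and 116 in P at day 2 and 115, 111, 101, 94.3 and 104 at day 4, and 87.9 to 107 with a median of 99.2 at day 12, falls of 1.34-fold, 1.31-fold and 1.39-fold (adjusted p = 0.00011, 0.000349 and 1.61e-05). Its PD falls were 1.33-fold, 1.22-fold and 1.37-fold (adjusted p = 0.000177, 0.00408 and 3.43e-05), and the day 4 call was lost without unwounded replicate 3 (0.104), and with only the libraries compared (0.138). Triap1 was 33.5, 33.5 and 33.6 CPM in unwounded skin and 22.9, 20.5, 22.8, 22.5 and 25.4 in P and 22.2, 22.4, 21.8, 23.5 and 25.2 in PD at day 2, 1.47-fold and 1.46-fold lower (adjusted p = 0.000103 and 0.000153). It was between 19.8 and 29.2 CPM in every later wound library (adjusted p = 0.00308 and 0.00027 in P, 0.00294 and 0.000227 in PD). Changes this small depend on the scaling: without a composition factor the day 12 calls were lost for Ei24 (adjusted p = 0.0812 in P, 0.071 in PD) and Triap1 (0.112 and 0.062), and the PD day 4 call of Triap1 was lost with only the libraries compared (0.0523). Ei24 overlaps Fez1 on the other strand.

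Bbc3, which codes for the BH3-only protein Puma, was called lower at day 2 only, 1.98-fold in P (adjusted p = 0.00423) and 1.78-fold in PD (adjusted p = 0.0153). It was 16.1, 7.38 and 15.6 CPM in unwounded skin and 5.71, 6.2, 6.33, 8.68 and 5.89 in P and 6.48, 5.57, 6.91, 9.46 and 8.04 in PD, with overlapping ranges. The P call was lost without unwounded replicate 1 (0.0518). The PD call was lost without unwounded replicates 1 and 3 (1 at a time, 0.131 to 0.15), and with only the libraries compared (0.0508). It rose from day 4 to day 12 in PD (log2 0.70 ± 0.22, adjusted p = 0.0142). That call was lost without PD day 12 replicate 5 (0.0517), and with only the libraries compared (0.0719). Eda2r, a receptor of the TNF family for ectodysplasin A2, was called higher once, in P at day 2, where it was 19, 35.6, 29.1, 29 and 45.2 CPM against 14.1, 14.6 and 10.8 (log2 1.26 ± 0.43, adjusted p = 0.0177). The call did not hold without unwounded replicate 3 (0.0666). Aen, an exonuclease of apoptotic DNA, and Tnfrsf10b, the receptor for TRAIL, were called in none of these comparisons. Their group means ran from 35.02 to 44.04 CPM and from 9.10 to 11.8 CPM.

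Of the 8 growth arrest and signalling genes, 4 to 6 were called higher in each comparison with unwounded skin. The counts were 5 higher and 1 lower in P at day 2, 6 and 1 at day 4, and 4 and 0 at day 12. In PD the counts were 5 and 1, 6 and 1, and 5 and 1. As shares of the 8, 50% to 75% were called higher, against 21% to 25.4% of all genes. Those called lower were 0% to 12.5%, against 18.4% to 21.8%. The group was drawn up with earlier results of these data known, so this contrast is no independent test. Plk3, a polo-like kinase induced by stress, was 28, 21.3 and 24.1 CPM in unwounded skin. The P libraries held 160.3, 162, 271, 173 and 128 at day 2, 193, 181, 155, 348 and 168 at day 4 and 46.3 to 104 with a median of 82.6 at day 12. Across PD wounds it was 111, 92.2, 104, 126 and 178 at day 2, 132 to 394 with a median of 260.5 at day 4 and 37.6 to 130.2 with a median of 58.8 at day 12. No wound library reached down to unwounded skin. The rise was 7.3-fold, 8.54-fold and 3.2-fold in P (adjusted p = 1.42e-06, 6.32e-07 and 0.000572) and 4.99-fold, 10.8-fold and 2.91-fold in PD (adjusted p = 2.39e-05, 9.38e-08 and 0.00127). From day 4 to day 12 it changed by a log2 of -1.42 ± 0.29 in P (adjusted p = 0.00069) and -1.89 ± 0.29 in PD (adjusted p = 7.11e-06). From day 2 to day 4 it was called higher in PD (log2 1.11 ± 0.30, adjusted p = 0.0285). It lost the call without PD day 4 replicates 3, 4 and 5 or PD day 2 replicates 1, 2 and 3 (1 at a time, 0.0509 to 0.0977), and without the filter on low counts (0.056) and with only the libraries compared (0.0668). Its exons overlap those of Dynlt4 on the other strand.

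Gadd45a was 21.6, 21.9 and 16.7 CPM in unwounded skin. Its values in P were 101, 96.1, 159, 116 and 102 at day 2, 85, 84.7, 73.6, 178 and 67.2 at day 4 and 20 to 47.4 with a median of 34.6 at day 12. In PD wounds it was 73.8, 53.4, 83.6, 113 and 146 at day 2, 76.4 to 363 with a median of 206 at day 4 and 44.7 to 81.8 with a median of 48.6 at day 12. At days 2 and 4 every wound library lay above unwounded skin, and at day 12 every library but P replicate 1 (19.99 CPM). The rise was 5.73-fold and 4.87-fold in P at days 2 and 4 (adjusted p = 2.22e-05 and 7.61e-05), and in PD 4.68-fold, 9.69-fold and, at day 12, 2.86-fold (adjusted p = 0.000106, 6.11e-07 and 0.00294). P at day 12 was not called (log2 0.82 ± 0.39, adjusted p = 0.0826). Over the 33 wound libraries Gadd45a moved with the summed muscle markers (deviations from group means, r = 0.73, Spearman 0.77, each with a permutation p of 1e-05, adjusted p = 0.000171 and 0.000231; r = 0.75 without the 2 farthest libraries and 0.63 with the replicate number also removed). Its highest value in any library, 363 CPM, was in PD day 4 replicate 3. That library had the highest muscle and neutrophil sums of its group (79900 and 13900 CPM). Replicates 1 and 2 of PD day 4, at 84.0 and 76.4 CPM of Gadd45a, had the lowest of both. Their neutrophil sums were 3760 and 2610 CPM. Between unwounded skin and wounds the muscle sum and Gadd45a went opposite ways. The muscle sum was 75700 to 120000 CPM in unwounded skin, where Gadd45a was below every wound library of days 2 and 4. In wounds the muscle sum had group medians of 10300 to 44600. Neutrophil sums were at most 2.43 CPM in unwounded skin, 2380 to 13900 at days 2 and 4, and at most 454 at day 12. The part of muscle or neutrophils in the change of Gadd45a was not tested. Gadd45a shares exon positions with the antisense gene E230016M11Rik, whose reads cannot be told apart if strand was not used.

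**Figure D2:**
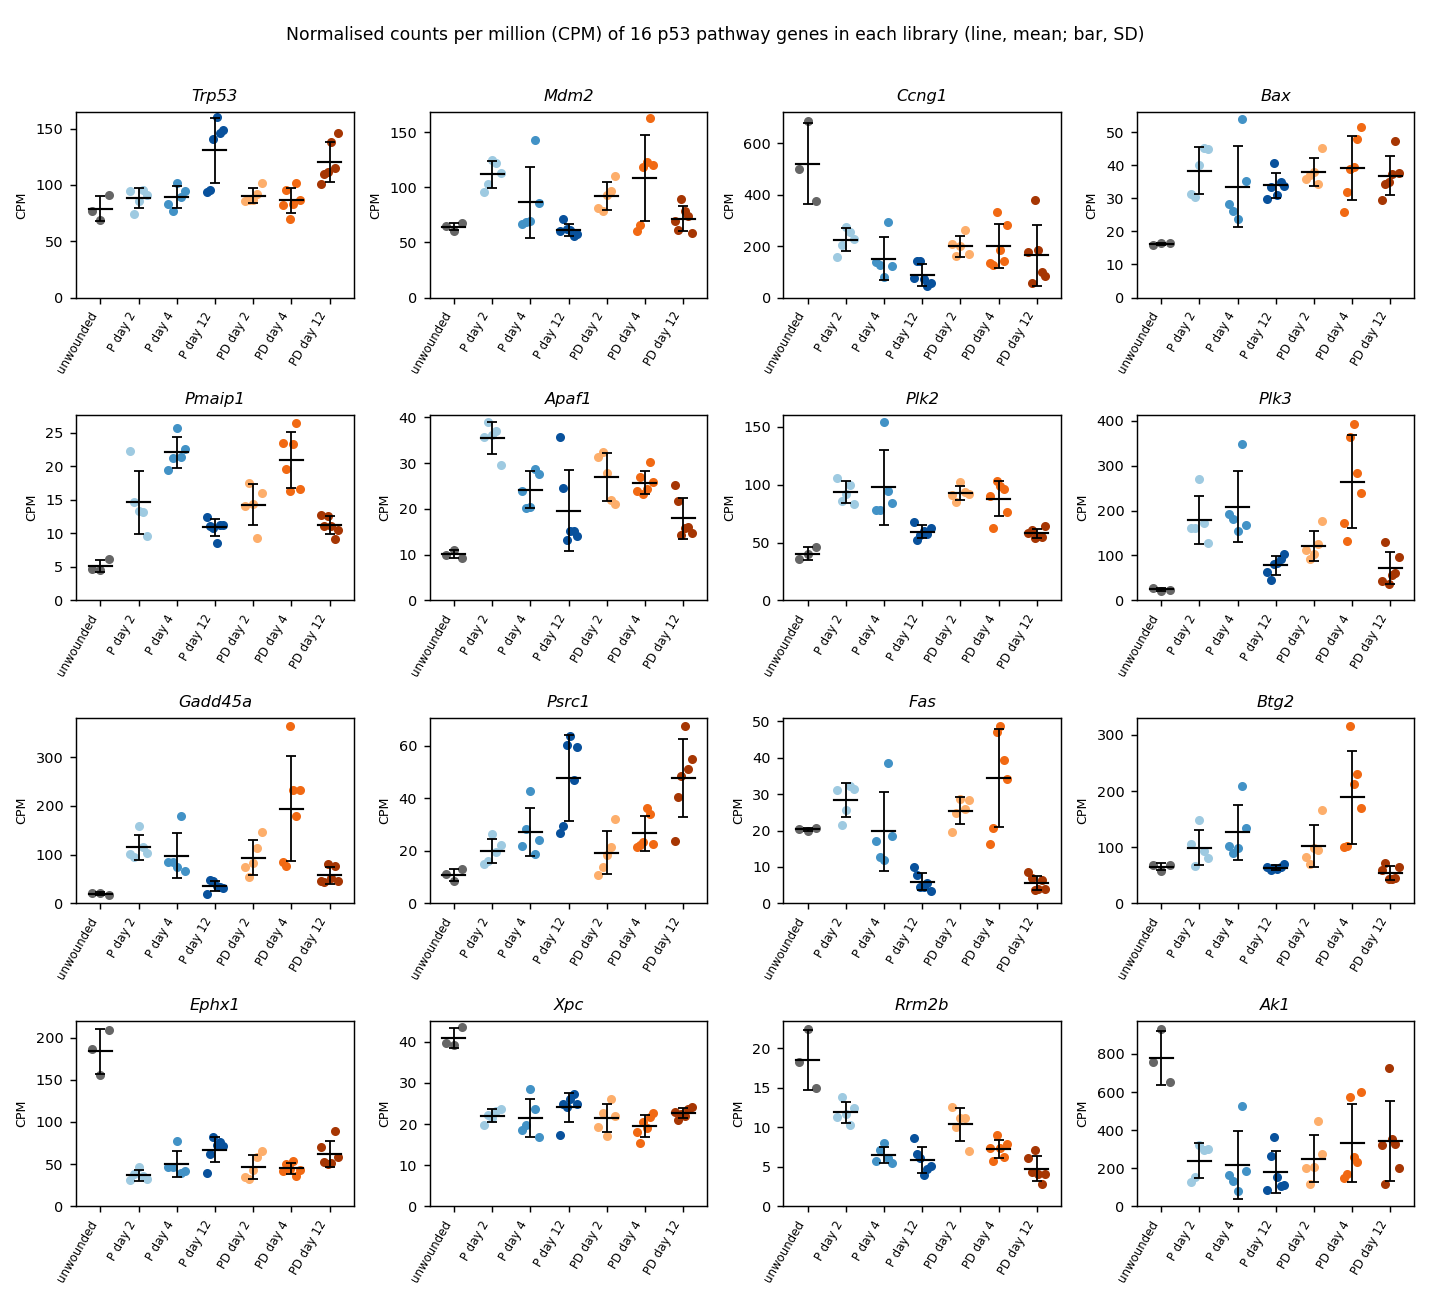
CPM of 16 of the genes in each library (points), by group; the horizontal line is the mean and the bar the SD, and every axis starts at 0. Bax, Pmaip1, Apaf1, Plk2 and Plk3 in wounds lie above all 3 unwounded libraries, Ephx1, Xpc and Rrm2b below them, and the PD day 4 values of Gadd45a, Fas and Btg2 spread widely.

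Plk2 was 35.5, 39.7 and 46.1 CPM in unwounded skin. Across P wounds it was 106, 85.8, 91.7, 99.9 and 83.5 at day 2, 78.3, 77.8, 154, 94.4 and 84.2 at day 4 and 52.6 to 68 with a median of 58.7 at day 12. PD wounds held 90.8, 84.9, 102, 93.6 and 92 at day 2, 62.9 to 103 with a median of 93.1 at day 4 and 54.1 to 64.5 with a median of 57 at day 12. All wound libraries lay above unwounded skin, by 2.31-fold and 2.42-fold in P and 2.29-fold and 2.17-fold in PD at days 2 and 4 (adjusted p at most 2.24e-06), and by 1.47-fold and 1.44-fold at day 12 (adjusted p = 0.00579 and 0.00928). Psrc1 was higher at day 12 than at day 4. It was 11.1, 8.38 and 13 CPM in unwounded skin. In P wounds it was 15.2, 16, 26.4, 19.8 and 22.2 at day 2, 22, 28.4, 42.6, 18.8 and 24.3 at day 4 and 26.9 to 63.6 with a median of 53.3 at day 12. The PD libraries held 10.7, 14, 18.4, 21.3 and 32 at day 2, 21.5 to 36.3 with a median of 23 at day 4 and 23.6 to 67.6 with a median of 50 at day 12. The rise was 2.52-fold in P and 2.47-fold in PD at day 4 (adjusted p = 0.00239 and 0.00204), and 4.43-fold and 4.42-fold at day 12 (adjusted p = 1.44e-05 and 1.48e-05). The day 2 calls (adjusted p = 0.0359 in P, 0.0479 in PD) were lost with single libraries left out. In P the call was lost without P day 2 replicates 3 and 5 or unwounded replicates 1 and 2 (1 at a time, 0.0592 to 0.132), and without the filter on low counts (0.0555). In PD it was lost without PD day 2 replicates 3, 4 and 5 or unwounded replicates 1 and 2 (1 at a time, 0.0584 to 0.169), and without the filter on low counts (0.0693), with the replicate number as a block (0.0678) and with only the libraries compared (0.0545). From day 4 to day 12 it rose in PD (log2 0.84 ± 0.26, adjusted p = 0.0125) and in P (log2 0.81 ± 0.27, adjusted p = 0.0293). The P call was lost without P day 12 replicates 3, 4 and 6 or P day 4 replicates 1, 2, 4 and 5 (1 at a time, 0.0514 to 0.0792), and with only the libraries compared (0.0659).

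Btg2, an antiproliferative cofactor of mRNA decay, was higher at day 4. It was 69, 58.1 and 68.2 CPM in unwounded skin, 101, 89, 98.7, 209.5 and 134 in P and 100.2 to 316 with a median of 191 in PD at day 4, and back at 59.2 to 70.3 and 42.5 to 72.2 at day 12. The day 4 rise was 1.94-fold in P (adjusted p = 0.0162; lost without unwounded replicate 2 (0.0534)) and 2.9-fold in PD (log2 1.53 ± 0.32, adjusted p = 0.000258). The fall to day 12 was called in both arms (log2 -0.99 ± 0.26, adjusted p = 0.00495, and -1.79 ± 0.25, adjusted p = 2.13e-06). The step up from day 2 was called in PD (log2 0.88 ± 0.26, adjusted p = 0.0466). It did not pass without PD day 4 replicates 3, 4, 5 and 6 or PD day 2 replicates 1, 2, 3 and 4 (1 at a time, 0.0654 to 0.138), and without a composition factor (0.0681), without the filter on low counts (0.0816), with the replicate number as a block (0.0509), with 2 surrogate variables (0.0627) and with only the libraries compared (0.169). Gdf15 had the lowest counts. It was 0.262, 0.0598 and 0.262 CPM in unwounded skin (15 counts over the 3 libraries), 1.25, 0.741, 1.57, 1.28 and 1.67 in P and 0.91, 1.27, 4.99, 2.02 and 3.34 in PD at day 2, and 1.05 to 1.78 and 0.572 to 2.46 at day 4. It was called higher in all 6 comparisons (fitted log2 change 2.50 ± 0.69 in P at day 12 to 3.77 ± 0.72 in PD at day 2, adjusted p at most 0.00393), with every wound library above unwounded skin, and the low counts in unwounded skin leave the size of the change imprecise.

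Zmat3, an RNA-binding zinc finger protein, was the member of this group that fell. It was 44.3, 42 and 44.9 CPM in unwounded skin, 26.8, 26.9, 21.2, 24 and 20.1 in P and 24.5, 28.3, 25.4, 20.1 and 22.2 in PD at day 2 (1.83-fold and 1.81-fold lower, adjusted p = 0.000599 and 0.00084). It was 32.5, 34.3, 30.9, 21.5 and 37.1 and 16.1 to 31.4 with a median of 22 at day 4, when the PD fall was 1.86-fold (adjusted p = 0.000264). The P call at day 4 (log2 -0.48 ± 0.20, adjusted p = 0.048) was lost without P day 4 replicates 1, 3 and 4 or unwounded replicates 1, 2 and 3 (1 at a time, 0.0602 to 0.234), and with DESeq2 size factors (0.0596), without a composition factor (0.162), without the filter on low counts (0.101) and by the DESeq2 Wald test (0.0567). At day 12 it was called in PD (log2 -0.63 ± 0.19, adjusted p = 0.00778; lost without PD day 12 replicate 5 or unwounded replicates 1 and 3 (1 at a time, 0.0518 to 0.0698), and without a composition factor (0.128)) and not in P (adjusted p = 0.122, or 0.0177 without day 12 replicates 1 and 2 of both arms). Phlda3, an inhibitor of Akt, was called in none of the 6 comparisons, at 122 ± 12.6 CPM (SD, n = 3) in unwounded skin and group means of 129.8 to 187.2 in wounds.

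Of the 4 DNA repair and nucleotide supply genes, Xpc, Rrm2b and Ddb2 were called lower in all 6 comparisons with unwounded skin, Polk in 3 of them, and 0 were called higher in any. Lower calls numbered 3 at day 2 in both arms and at day 4 in P, and 4 at the other times. These are 75% to 100% of the 4 genes, against 18.4% to 21.8% of all genes. This group too was drawn up with earlier results known, and the contrast is no independent test. Xpc, which recognises bulky DNA lesions, was 39.7, 39.3 and 43.7 CPM in unwounded skin. P wounds held 19.8, 22.1, 21.4, 23.2 and 23.6 at day 2, 18.5, 19.8, 28.4, 23.6 and 16.8 at day 4 and 17.4 to 27.3 with a median of 24.9 at day 12. Its values in PD were 19.2, 22.8, 17.1, 26 and 22 at day 2, 15.3 to 22.6 with a median of 19.8 at day 4 and 20.9 to 24.2 with a median of 22.6 at day 12. All wound libraries lay below unwounded skin, with falls of 1.86-fold, 1.91-fold and 1.7-fold in P (adjusted p = 1.16e-05, 6.98e-06 and 6.28e-05) and 1.91-fold, 2.1-fold and 1.8-fold in PD (adjusted p = 7.81e-06, 3.39e-07 and 1.51e-05). Rrm2b, the p53-inducible subunit of ribonucleotide reductase, was lower at every day, and of its 2 steps between days 1 was called in each arm. It was 18.2, 22.5 and 14.9 CPM in unwounded skin. The P libraries held 11.2, 13.8, 11.7, 10.3 and 12.5 at day 2, 5.75, 7.09, 7.96, 6.11 and 5.49 at day 4 and 3.95 to 8.62 with a median of 5.59 at day 12. Across PD wounds it was 12.5, 10, 11.2, 11.2 and 7.04 at day 2, 5.71 to 9.03 with a median of 7.37 at day 4 and 2.85 to 7.11 with a median of 4.21 at day 12. Every wound library lay below unwounded skin. The falls were 2.86-fold and 3.17-fold in P at days 4 and 12 (adjusted p = 5.47e-06 and 6.21e-07) and 2.56-fold and 3.88-fold in PD (adjusted p = 1.09e-05 and 4.47e-08). At day 2 they were 1.56-fold and 1.78-fold (adjusted p = 0.0276 and 0.00473). The P call was lost without P day 2 replicate 4 or unwounded replicates 1 and 2 (1 at a time, 0.0583 to 0.21), and without the filter on low counts (0.0512) and with the replicate number as a block (0.0619). The PD call was lost without unwounded replicate 2 (0.0823). The step from day 2 to day 4 was called in P (log2 -0.88 ± 0.21, adjusted p = 0.00748). It was the only member lower in that comparison (background 2.7%). In PD the step from day 2 to day 4 was not called. The step from day 4 to day 12 was not called in P (log2 -0.15, adjusted p = 0.629). It was called in PD (log2 -0.60 ± 0.19, adjusted p = 0.0145). That call was lost without PD day 12 replicate 5 or PD day 4 replicate 3 (1 at a time, 0.0519 to 0.0577), and without a composition factor (0.0754) and with only the libraries compared (0.0653).

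Ddb2, the damage sensor that acts with Xpc, was 24, 23.2 and 31.1 CPM in unwounded skin, 11.2, 13.2, 14, 12.7 and 15.9 in P and 11, 13.2, 14.2, 17.8 and 17 in PD at day 2 (1.94-fold and 1.78-fold lower, adjusted p = 0.000527 and 0.00237). It was 11.8, 13.6, 15.1, 17 and 12.5 in P at day 4 (1.86-fold, adjusted p = 0.00111). At both times the wound libraries lay below the unwounded ones. Its later calls were less stable. That of PD at day 4 (adjusted p = 0.00747) was lost without unwounded replicate 3 (0.0902). P at day 12 (adjusted p = 0.00553) was lost without unwounded replicate 3 (0.0844), and without a composition factor (0.0789). PD at day 12 (adjusted p = 0.0158) was lost without unwounded replicate 3 (0.172), and without a composition factor (0.137), with only the libraries compared (0.103) and without day 12 replicates 1 and 2 (0.0653). Polk, a translesion polymerase, was called lower at day 12 in both arms, at 6.71 to 12.1 with a median of 7.46 in P and 6.42 to 8.79 with a median of 8.21 in PD against 12.2, 12.6 and 14 CPM (adjusted p = 0.0108 and 0.00234). The P call was lost without unwounded replicates 2 and 3 (1 at a time, 0.0575 to 0.106), and without a composition factor (0.146) and with only the libraries compared (0.0611). PD at day 4 was also called (log2 -0.48 ± 0.19, adjusted p = 0.0356). The call did not hold without PD day 4 replicates 3, 4 and 6 or unwounded replicates 1, 2 and 3 (1 at a time, 0.062 to 0.191), and with DESeq2 size factors (0.0528), without a composition factor (0.0599), without the filter on low counts (0.0646), with the replicate number as a block (0.0713), with 2 surrogate variables (0.0696) and with only the libraries compared (0.119). Ddb2 overlaps Acp2, and Polk overlaps Cert1, on the other strand.

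Among the 7 genes of metabolism, redox and autophagy, 3 were called lower and 0 higher in P at day 2, 3 lower and 1 higher at day 4, and 4 lower at day 12. In PD the counts were 3 lower, 2 lower and 1 higher, and 3 lower. As shares of the 7, 28.6% to 57.1% were called lower, against 18.4% to 21.8% of all genes. Those called higher were 0% to 14.3%, against 21% to 25.4%. Ephx1, the microsomal epoxide hydrolase that detoxifies reactive compounds, fell at every time. It was 186, 156 and 209 CPM in unwounded skin. Its values in P were 31.1, 38.5, 46.9, 35.5 and 32.1 at day 2, 46.2, 46.1, 77.9, 39.8 and 41.4 at day 4 and 39.5 to 82.5 with a median of 71.5 at day 12. In PD wounds it was 34.7, 32.3, 42.5, 58 and 64.9 at day 2, 36.2 to 53.6 with a median of 43.7 at day 4 and 49.7 to 89.1 with a median of 55.7 at day 12. No wound library reached the unwounded range. The falls were 4.99-fold, 3.66-fold and 2.74-fold in P (adjusted p = 5.46e-09, 2.27e-07 and 4.65e-06) and 3.96-fold, 4.1-fold and 2.97-fold in PD (adjusted p = 1.03e-07, 1.43e-08 and 1.53e-06), with standard errors of 0.22 to 0.23 on the log2 scale, and held under every alternative tried. Ephx1 overlaps Gm36961 on the same strand and Tmem63a on the other.

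The sestrins, which restrain mTORC1 under stress, went apart. Sesn1 was 82.2, 73.5 and 75.1 CPM in unwounded skin and 42.9, 52.9, 57.3, 43.6 and 44.3 in P and 38.4, 48.6, 44.7, 47.1 and 40.2 in PD at day 2, 1.6-fold and 1.76-fold lower (adjusted p = 0.000348 and 4.19e-05). It stayed below unwounded skin at day 12, 1.56-fold in P and 1.52-fold in PD (adjusted p = 0.000439 and 0.000786), and at day 4 was called in PD only (adjusted p = 0.00326). It lost the call without unwounded replicate 1 (0.0538). Sesn2 was 31.1, 28.9 and 41.9 CPM in unwounded skin and was called higher at day 4, at 49.7, 46.6, 59, 78.7 and 49.8 in P (1.67-fold, adjusted p = 0.00596) and 43.8 to 73.2 with a median of 54.9 in PD (1.72-fold, adjusted p = 0.00271), with every day 4 library above unwounded skin. It fell from day 4 to day 12 in PD (log2 -0.76 ± 0.17, adjusted p = 0.000571) and in P (log2 -0.51 ± 0.17, adjusted p = 0.0309). The P call was lost without P day 12 replicates 1 and 2 or P day 4 replicate 4 (1 at a time, 0.062 to 0.128), and without a composition factor (0.209), without the filter on low counts (0.0595), with only the libraries compared (0.0536) and without day 12 replicates 1 and 2 (0.175). Sesn1 overlaps Cep57l1 on the other strand.

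Ak1, the adenylate kinase of muscle and other tissues, and Tigar, a phosphatase that lowers glycolytic flux, were low where muscle was low. Ak1 was 760.2, 929 and 650.2 CPM in unwounded skin. Across P wounds it was 125, 155, 319.5, 296 and 299.8 at day 2, 163, 130.5, 80.2, 524 and 185 at day 4 and 87.8 to 365 with a median of 134 at day 12. PD wounds held 199.5, 118, 208, 447 and 277 at day 2, 149.6 to 600.4 with a median of 246 at day 4 and 114 to 727 with a median of 325 at day 12. It was called lower in P at every day (3.26-fold, 3.6-fold and 4.3-fold, adjusted p = 0.0148, 0.00857 and 0.00203) and in PD at day 2 (3.12-fold, adjusted p = 0.0197). The P day 2 call was lost without unwounded replicate 2 (0.0561). The PD call was lost without PD day 2 replicate 2 or unwounded replicates 1 and 2 (1 at a time, 0.0504 to 0.0785). PD day 12 replicate 3, with the highest muscle sum of the wounds, held 726.6 CPM of Ak1, inside the unwounded range. Tigar was called lower in P at day 4 (2.52-fold, adjusted p = 0.00755; lost without unwounded replicate 2 (0.0532)), in P at day 12 (3.53-fold, adjusted p = 0.000283) and in PD at day 12 (2.89-fold, adjusted p = 0.00172), from 63.1, 85.3 and 56.7 CPM in unwounded skin to 11.6 to 33.3 with a median of 17.7 and 14.8 to 38.2 with a median of 20.5 at day 12. Over the 33 wound libraries, as deviations from group means, Ak1 (r = 0.96, Spearman 0.97, r = 0.95 without the 2 farthest libraries), Tigar (0.88, 0.92 and 0.88) and Eda2r (0.84, 0.85 and 0.82) moved with the summed muscle markers, each with a permutation p of 1e-05, the smallest possible, and adjusted p = 0.000171 for r and 0.000231 for Spearman. Eda2r, unlike Ak1 and Tigar, was called higher in P at day 2, where muscle sums were below those of unwounded skin. The part of muscle in the changes of these genes was not tested. Of the 36 genes, 8 moved with the muscle sum and 5 against it at an adjusted permutation p of r under 0.05. The counts were 8 and 10 for fibroblast markers, 7 and 11 for endothelium, 5 and 5 for macrophages and 3 and 4 for keratinocytes. They were 4 and 7 for lymphocytes, 1 and 5 for adipocytes, 3 and 1 for neutrophils and 1 and 2 for hair follicle. The relation was computed for the 36 genes only. Without the share among all genes, these counts show nothing particular to the 36.

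**Figure D3:**
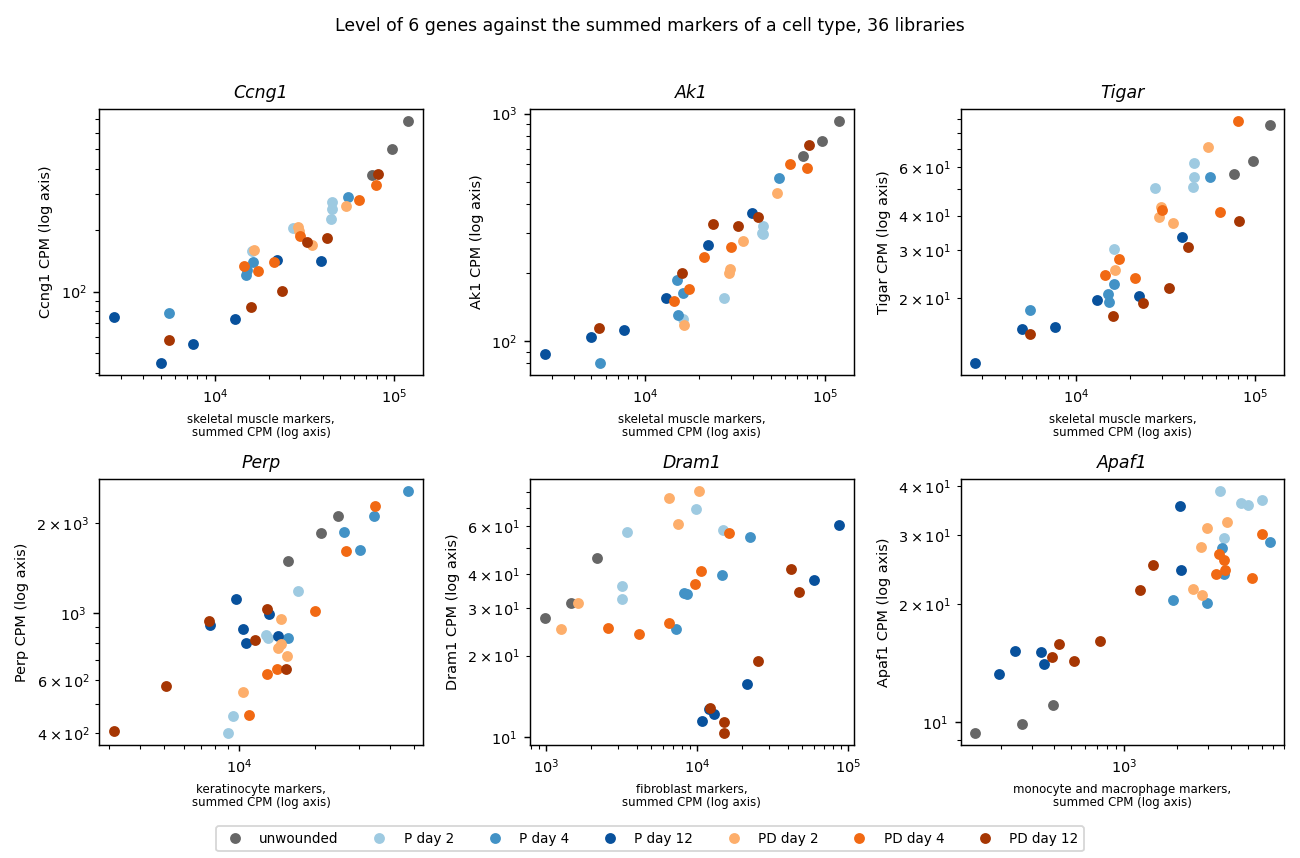
CPM of 6 genes (vertical, log axis) against the summed CPM of markers of muscle, keratinocytes, fibroblasts or macrophages (horizontal, log axis) in all 36 libraries, coloured by group. Ccng1, Ak1 and Tigar climb with the muscle sum up to the unwounded libraries at 75700 to 120000 CPM, and Dram1 at day 12 splits into 4 libraries at 34.2 to 60.4 CPM and 8 at 10.4 to 19.1.

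Dram1, a lysosomal protein of autophagy, and Steap3, an endosomal ferrireductase, were called in none of the comparisons with unwounded skin, and their values split by library within groups. At day 12 Dram1 was 60.4 and 37.9 CPM in replicates 1 and 2 of P and 34.2 and 41.8 in those of PD, and 10.4 to 19.1 in the other 8 libraries, against 31.3, 45.9 and 27.6 in unwounded skin. Steap3 was 126.1 and 151.4 CPM in P replicates 1 and 2 and 110.4 and 102.3 in those of PD, and 49.1 to 78.0 in the other 8, against 42.8, 52.2 and 38.5 in unwounded skin. These are the 4 libraries with the high fibroblast and macrophage marker sums given above. Without them Dram1 was called lower at day 12, at 13 ± 1.88 CPM in P (SD, n = 4; 2.62-fold, log2 -1.39 ± 0.35, edgeR adjusted p = 0.00229) and 13.4 ± 3.9 in PD (SD, n = 4; 2.6-fold, log2 -1.38 ± 0.35, edgeR adjusted p = 0.00238), with all 8 libraries below unwounded skin. Steap3 was not called without them (adjusted p = 0.549 in P and 0.346 in PD).

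A like split stood at day 2. In PD, Dram1 was 76.3, 80.9 and 61.4 CPM in replicates 1 to 3 and 25.1 and 31.4 in the others, and Steap3 was 76.9, 103.4 and 73.2 against 37.6 and 34.3. The fibroblast sums of those PD libraries were 6570 to 10300 CPM in the first 3 and 1260 and 1630 in the other pair. In P the sums were 9930 and 14900 in replicates 1 and 2 and 3190 to 3470 in the other 3, where Steap3 was 77.1 and 93.9 CPM against 35.4 to 47.6. Dram1 in P was 69.6 and 57.9 in those replicates and 36.1, 56.9 and 32.4 in the others. Over the 33 wound libraries, as deviations from group means, the fibroblast sum went with Dram1 (r = 0.91, Spearman 0.88, each with a permutation p of 1e-05, adjusted p = 0.000171 and 0.000231; r = 0.91 without the 2 farthest libraries and 0.78 with the replicate number also removed). For Steap3 the values were r = 0.87 (permutation p = 1e-05, adjusted p = 0.000171), Spearman 0.84 (p = 2e-05, adjusted p = 0.00036), 0.85 and 0.69. Both also moved with endothelial markers (r = 0.85 and 0.79, adjusted permutation p = 0.000171 and 0.000324) and macrophage markers (r = 0.75 and 0.54, adjusted permutation p = 0.00178 and 0.0217). The part of those cells was not tested.

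Between successive days, the calls were fewer early than late. From day 2 to day 4, 2 of 36 were called higher and 1 lower in P (all genes 5.76% and 2.7%, 8.45% in all), and 2 higher and 0 lower in PD (2.67% and 1.59%, 4.26% in all). From day 4 to day 12, 4 were called higher and 8 lower in P (11.2% and 12.6%, 23.8% in all), and 5 higher and 11 lower in PD (15.7% and 15.6%, 31.3% in all). The genes lower at day 12 in both arms were Pmaip1, Fas, Btg2, Gadd45a, Plk2, Plk3 and Sesn2, with Perp in P, and Mdm2, Apaf1, Rrm2b and Ei24 in PD. Those higher in both were Trp53, Mdm4, Pidd1 and Psrc1, with Bbc3 in PD. Gadd45a changed by a log2 of -1.46 ± 0.32 in P (adjusted p = 0.00112) and -1.76 ± 0.31 in PD (adjusted p = 5.21e-05), and Plk2 by -0.72 ± 0.13 (adjusted p = 0.000223) and -0.60 ± 0.13 (adjusted p = 0.000499). The PD falls of Apaf1 (log2 -0.52 ± 0.19, adjusted p = 0.0323) and Ei24 (log2 -0.17 ± 0.07, adjusted p = 0.0483) were unstable. That of Apaf1 was lost without PD day 12 replicates 3, 4, 5 and 6 or PD day 4 replicates 2, 3, 4, 5 and 6 (1 at a time, 0.0504 to 0.0903), and without a composition factor (0.175) and without the filter on low counts (0.0882). That of Ei24 was lost without PD day 12 replicates 1, 2, 3, 4 and 5 or PD day 4 replicates 1, 2, 3, 4 and 6 (1 at a time, 0.052 to 0.183), and without a composition factor (0.772), without the filter on low counts (0.284), with only the libraries compared (0.173) and without day 12 replicates 1 and 2 (0.0936). Without day 12 replicates 1 and 2 of both arms the counts from day 4 to day 12 were 6 higher and 10 lower in P, and 5 higher and 10 lower in PD. In P that setting added Apaf1, Polk, Sesn1 and Dram1 to the lower genes and Aen and Ephx1 to the higher ones, and dropped Perp and Sesn2. In PD it added Dram1 to the lower genes and dropped Mdm2 and Ei24. The counts depend on the scaling. Without a composition factor P had 8 higher at day 12 against day 4, and PD 9 higher and 7 lower, and the median of all genes in these comparisons moved from -0.01 to 0.17 in P and from -0.003 to 0.20 in PD.

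No difference between PD and P wounds passed the test in any of the 36 genes. At days 2, 4 and 12, and on average over days, 0 members were called by edgeR, out of 0 genes of 20657 called (0.0%, 0.0%, 0.0% and 0.0%). At an unadjusted p under 0.05 there were 0 members at day 2 (793 genes, 3.84% of all), 6 at day 4 (2369 genes, 11.5%), 3 at day 12 (1022 genes, 4.95%) and 4 for the mean over days (2488 genes, 12.0%). The DESeq2 Wald test called 24 genes at day 2, 184 at day 4, 0 at day 12 and 104 for the mean, among them 0 of the 36.

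At day 4 the smallest p-values belonged to Gadd45a, Fas and Trp53inp1. Gadd45a was 85, 84.7, 73.6, 178 and 67.2 CPM in P and 76.4 to 363 with a median of 206 in PD (log2 0.99 ± 0.32, 95% interval 0.36 to 1.63, edgeR unadjusted p = 0.00434, adjusted p = 0.34). Its groups overlapped, since PD replicates 1 and 2 (84.0 and 76.4 CPM) lay among the P libraries and P replicate 4 (178.3) lay near the other PD libraries. Fas was 17, 12.7, 12, 38.7 and 18.6 in P and 16.2 to 48.7 with a median of 36.7 in PD (log2 0.80 ± 0.30, 95% interval 0.22 to 1.38, unadjusted p = 0.0112, adjusted p = 0.38), with the same libraries apart: P replicate 4 at 38.7, PD replicates 1 and 2 at 16.2 and 20.7. P replicate 4 also had the highest muscle and neutrophil marker sums of its group (55500 and 9280 CPM). PD replicates 1 and 2 had the lowest of theirs (14500 and 17400 for muscle, 3760 and 2610 for neutrophils). The part of those cells was not tested. By the same edgeR test Trp53inp1 went the other way, at 25.4, 19.6, 46.8, 12.5 and 15.3 in P and 9.59 to 17.2 with a median of 14.5 in PD (log2 -0.78 ± 0.29, 95% interval -1.35 to -0.20, unadjusted p = 0.0121, adjusted p = 0.38). Its highest P value, 46.8 CPM, was in replicate 3, whose hair follicle marker sum was 6240 CPM against 17.8 to 25.1 in the other P libraries. The part of that tissue was not tested. Zmat3, Btg2 and Perp were the others under 0.05 unadjusted, with log2 differences of -0.41, 0.58 and -0.70 and adjusted p of 0.392, 0.405 and 0.414.

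**Figure D4:**
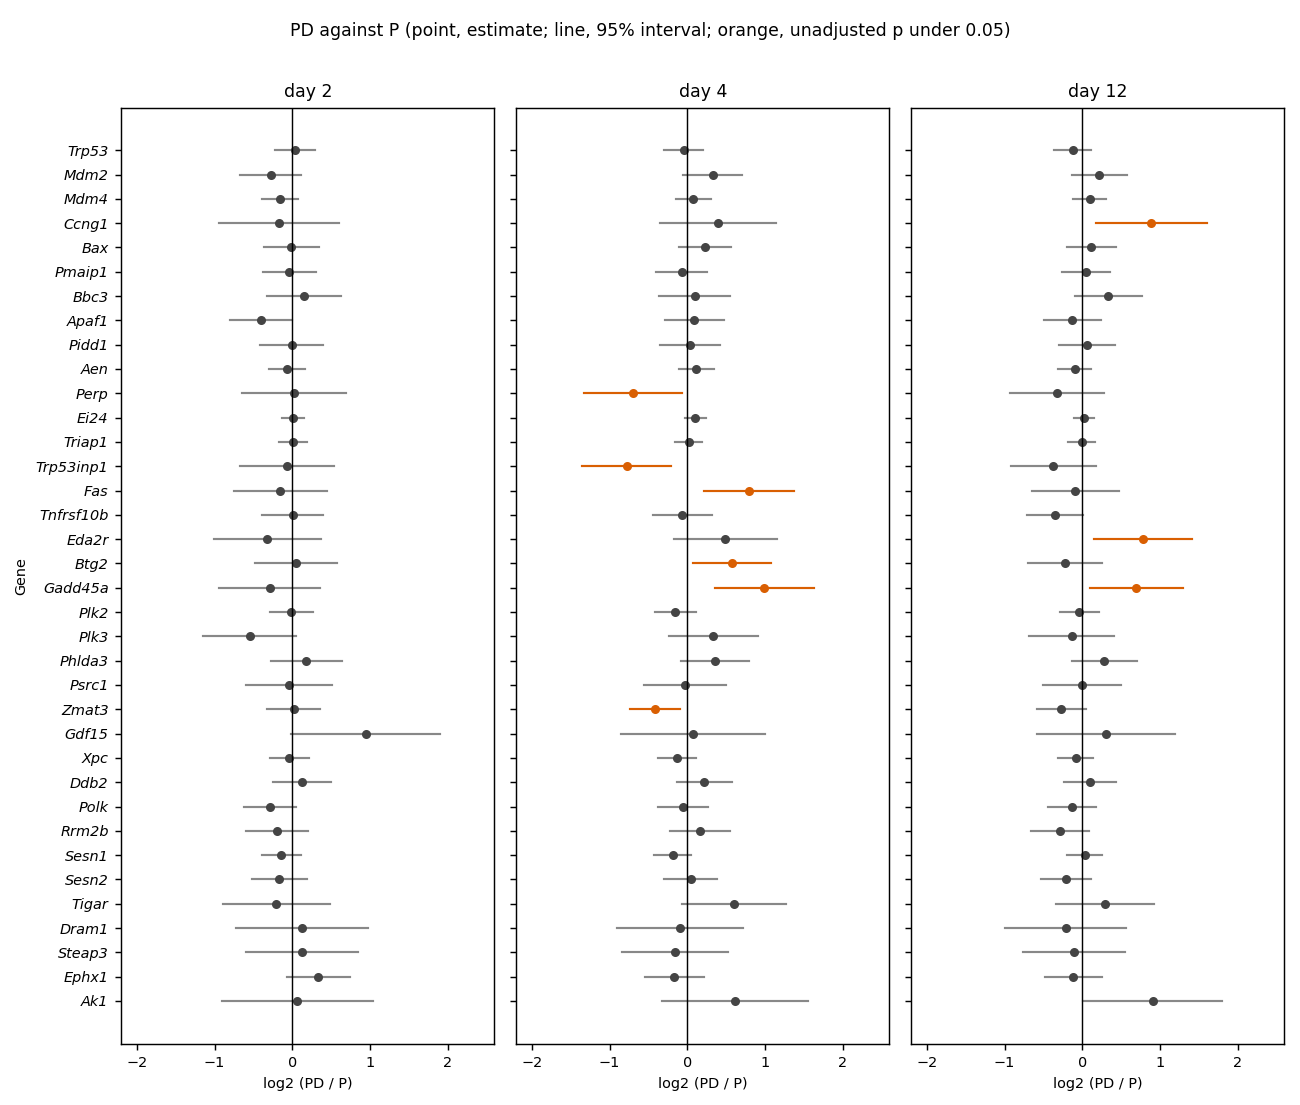
Log2 ratio of PD to P wounds for the 36 genes at days 2, 4 and 12 (point, estimate; line, 95% interval; orange, unadjusted p under 0.05, none of them under 0.05 after adjustment). Most intervals at day 2 are centred near 0, and at day 4 Gadd45a, Fas and Btg2 lie to the right and Perp, Trp53inp1 and Zmat3 to the left.

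At day 2 the smallest edgeR p-values were those of Apaf1 (log2 -0.40 ± 0.20, 95% interval -0.80 to 0.00, unadjusted p = 0.0592), Gdf15 (0.94 ± 0.49, -0.01 to 1.9, unadjusted p = 0.0616) and Plk3 (-0.55 ± 0.31, -1.15 to 0.05, unadjusted p = 0.0825), each with an adjusted p of 1. Apaf1 was 35.7, 38.9, 36.3, 37 and 29.6 CPM in P and 31.2, 32.4, 27.9, 21.9 and 21.1 in PD, and the values overlapped. At day 12 the smallest edgeR p-values were those of Ccng1 (log2 0.89 ± 0.36, 95% interval 0.17 to 1.60, unadjusted p = 0.0208), Eda2r (0.78 ± 0.32, 0.14 to 1.41, unadjusted p = 0.0221) and Gadd45a (0.69 ± 0.30, 0.10 to 1.29, unadjusted p = 0.0295), each with an adjusted p of 0.884. Ccng1, Eda2r and Gadd45a all moved with muscle markers, and PD day 12 replicate 3, with the highest muscle sum, held the highest day 12 value of each (379.3, 35.5 and 81.8 CPM). For the mean over days Gadd45a had the smallest edgeR p (log2 0.47 ± 0.18, unadjusted p = 0.0165, adjusted p = 0.403), then Trp53inp1 (-0.41 ± 0.17, unadjusted p = 0.0219) and Zmat3 (-0.22 ± 0.10, unadjusted p = 0.027). The approximate 95% intervals, which reflect the spread between these libraries only, do not show that the arms were equal. Those of Trp53 were -0.23 to 0.30, -0.30 to 0.20 and -0.36 to 0.12 on the log2 scale at days 2, 4 and 12. Those of Mdm2 were -0.67 to 0.11, -0.05 to 0.71 and -0.14 to 0.58, and those of Bax -0.36 to 0.34, -0.11 to 0.57 and -0.20 to 0.44.

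The change of the difference between days was tested as an interaction, and 0 members and 0 genes were called (0.0% and 0.0%). Between days 2 and 4, 4 members were at an unadjusted edgeR p under 0.05 (1472 genes, 7.13% of all; DESeq2 called 78), led by Gadd45a (log2 1.28 ± 0.46, unadjusted p = 0.00905, adjusted p = 0.633), Fas (0.95 ± 0.42, unadjusted p = 0.032) and Mdm2 (0.61 ± 0.28, unadjusted p = 0.0364). By edgeR, between days 4 and 12 there were 2 (623 genes, 3.02%; DESeq2 called 89), Btg2 (-0.80 ± 0.36, unadjusted p = 0.0312) and Fas (-0.89 ± 0.41, unadjusted p = 0.0376), both with an adjusted p of 1.

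The rest of the pathway was followed through 3 further lists. Cdkn1a itself was 244, 194 and 246 CPM in unwounded skin, 513, 455, 406, 717 and 382 in P and 389.9 to 823 with a median of 736 in PD at day 4, 2.17-fold and 2.88-fold higher (adjusted p = 0.00035 and 4.89e-06). Like Gadd45a and Plk3, it was lower at day 12 than at day 4 in both arms (log2 -0.90 ± 0.19 and -0.90 ± 0.18, adjusted p = 0.000762 and 0.000244). Of 16 upstream kinases, cofactors and family members, 3 to 5 were called higher (18.8% to 31.2%) and 2 to 4 lower (12.5% to 25%) in the 6 comparisons with unwounded skin, where 21% to 25.4% of all genes were called higher and 18.4% to 21.8% lower. The p53 relative Trp63, which keratinocytes need, was lower in all 6, from 292 ± 38 CPM (SD, n = 3) in unwounded skin to 124 ± 30.3 (n = 5) in P and 135 ± 18.5 (n = 5) in PD at day 2 (adjusted p = 0.00025 and 0.000933). Chek1, the checkpoint kinase of replication stress, was higher in all 6, from 2.86 ± 0.988 to 5.93 ± 2.02 and 6.25 ± 1.27 (adjusted p = 0.00414 and 0.00264). Of 24 further reported targets, 8 to 11 were called higher (33.3% to 45.8%) and 4 or 5 lower (16.7% to 20.8%), the lower share being near that of all genes. Ier5, an immediate early gene, was 34.4 ± 1.42 CPM in unwounded skin and 175 ± 59.1 (n = 5) in P and 224 ± 65.5 (n = 6) in PD at day 4 (adjusted p = 2.67e-08 and 1.42e-09). Igfbp3, a secreted binder of insulin-like growth factors, fell from 559.6 ± 147 to 112 ± 33.1 and 106 ± 13.5 at day 2 (adjusted p = 1.82e-06 and 1.44e-06). All 12 cell cycle genes that p53 lowers through p21 were called higher in each of the 6 comparisons, against those 21% to 25.4% of all genes. Birc5, the survivin gene, rose from 6.6 ± 1.4 CPM to 49.6 ± 4.88 (n = 5) in P and 60 ± 10.2 (n = 6) in PD at day 4 (adjusted p = 1.94e-11 and 1.66e-12).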

How the data were processed

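RNA of snap-frozen mouse skin was extracted with TRIzol and made into stranded mRNA libraries, per the labels' protocols. The deposited values are raw counts per gene, 1 file per library; per the submitters' processing notes, Trimmomatic, HISAT2 2.1.0, SAMtools 1.9 and HTSeq were used with GRCm39. The strand setting of the counting and the annotation release are not given in the sources used here. Counts of all 36 libraries were joined by gene (55414 genes, of which 1416 had no symbol). Genes were filtered with filterByExpr (minimum count 10, minimum total 15), which kept 20657, scaled by TMM, and fitted with edgeR 4.0.16 (robust quasi-likelihood, R 4.3.3), with 1 mean for each of the 7 groups so that all libraries share the estimate of the spread. Every adjusted p in the text is from this fit, with Benjamini-Hochberg adjustment over all 20657 genes and a threshold of 0.05, unless another tool is named. Intervals of log2 differences are a normal approximation on the standard error. Library depth ran from 11.807 to 58.376 M counts; the number of libraries, more than counting error, limits the precision. No 2 libraries of a group agreed within counting noise (smallest chi-square per degree of freedom 13.41). Marker sums add the CPM of a cell type's markers, and their relation to a gene was computed on deviations of log2 values from group means with 100000 permutations. Response elements were searched around the canonical start in the GENCODE annotation of GRCm39. Alternatives were DESeq2 1.42.0 (size factors, and its Wald test), no composition factor, no filter, a replicate block, 2 surrogate variables (sva 3.50.0), only the libraries compared, and each library left out; leaving out day 12 replicates 1 and 2 of both arms was chosen after seeing the data. The genes, lists and tests were chosen with earlier results of these data known. Values by library are given for Trp53, Mdm2 and Ccng1, for up to 5 genes called higher and 5 called lower with the smallest adjusted p in each comparison with unwounded skin, and for the 3 genes with the smallest p between arms at each day; other genes with such values were chosen after their values were seen.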

Additional observations from a re-analysis of the deposited data

Results flagged for a closer look

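In 16 of 216 groups of values (7.41%), over 14 of the 36 genes, 1 library lay farther from the others than Dixon's test allows; chance gives about 1 in 20 groups. P day 4 replicate 4 was the highest of its group for 7 genes: Mdm2 at 142 CPM (next 85.5), Ccng1 at 292 (next 139), Fas at 38.7 (next 18.6), Gadd45a at 178 (next 85.0), Plk3 at 348 (next 193), Tigar at 55.1 (next 22.6) and Ak1 at 524 (next 185). The same library had the highest muscle, neutrophil and macrophage marker sums of its group (55500, 9280 and 6670 CPM); their part was not tested. P day 4 replicate 3 was highest for Plk2 at 154 CPM (next 94.4) and Ephx1 at 77.9 (next 46.2), and its hair follicle marker sum was 6240 CPM against 17.8 to 25.1 in the other 4.

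P day 12 replicate 1 was lowest for Phlda3 at 65.9 CPM (next 131) and Xpc at 17.4 (next 24), and P day 12 replicate 2 highest for Mdm2 at 71.4 (next 61.7). Single values stood out for Bbc3 in P day 2 replicate 4 at 8.68 CPM (next 6.33), Ddb2 in PD day 12 replicate 5 at 30.6 (next 15.8), Polk in PD day 4 replicate 6 at 5.41 (lowest, next 9.21) and Tigar in PD day 4 replicate 3 at 88.5 (next 41.9), a library with a muscle sum of 79900 CPM.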

How the results depend on the processing

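Of 170 called gene results, 121 kept their call under every alternative and 49 lost it under at least 1, 42 of them with 1 library left out. The 18 uncalled results between arms stayed uncalled. Ei24 in PD from day 4 to day 12 turned to 0.036 (log2) without a composition factor. That setting also gave 8 members lower in P at day 12 against unwounded, 8 higher in P from day 4 to 12, 9 higher and 7 lower in PD from day 4 to 12, and 1 higher and 1 lower in PD from day 2 to 4; the share called higher among all called genes went from 54.2% to 73.0% and from 53.9% to 71.7% at day 12 against unwounded (P, PD), from 53.3% to 65.7% in PD at day 2, from 47.1% to 69.6% and 50.2% to 70.0% from day 4 to 12, and from 62.6% to 35.8% in PD from day 2 to 4. With 2 surrogate variables, 13 members were higher in PD at day 2 against unwounded, 4 higher and 4 lower in P from day 2 to 4 (3204 genes in all), 6 higher in PD (2710 genes), 7516 genes were called in P from day 4 to 12, and 9 members were higher in PD. With only the libraries compared, P from day 2 to 4 had 1138 genes with 0 members higher and 2 lower, PD 381 genes with 1 higher, and P from day 4 to 12 had 2 higher. Without the filter, P from day 2 to 4 had 1 member higher and PD 0 (527 genes). DESeq2 size factors gave 4 higher in PD from day 2 to 4, and the DESeq2 Wald test 5 (1647 genes). Between arms that test called 24 genes at day 2, 184 at day 4, 104 for the mean over days, and 78 and 89 for the interactions, with 0 members. With 1 library left out, edgeR called 0 to 31 genes between arms at day 4 (31 without P replicate 4; 27, 27 and 26 without P replicates 1, 2 and 5; 1 without PD replicate 2), 937 to 2444 genes in P from day 2 to 4 (0 to 4 members higher, 1 to 4 lower), 430 to 1141 in PD (0 to 5 higher), and 2 to 6 members higher in P from day 4 to 12. Deviations of libraries with the same replicate number had a median r of 0.11, against -0.03 for other numbers. Single pairs ran from -0.25 to 0.54, the highest between arms at day 12, where replicates 1 and 2 of both arms shared high fibroblast sums. In 0 of 13 comparisons was every pair over 0.1, so the numbers were not taken as pairs, though this strict rule does not exclude a pairing. Libraries matched best with their own number in 2 of 3 (P day 2 and P day 12, each against unwounded) and 3 of 5 (PD against P at day 2). The lowest was 0 of 3 (PD day 12 against unwounded) and 0 of 5 (P day 12 against day 4). The replicate block changed several counts of members lower, among them P from day 2 to 4 (1 to 2), PD at day 4 against unwounded (11 to 14) and PD from day 4 to 12 (11 to 13). The 3 unwounded libraries limit every comparison with unwounded skin, and the counts of Gdf15 limit its fold.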
